A study of Homo sapiens with 4 samples.

Results

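The CXCL12 axis and 5 other chemokine ligands were followed in CD31+ cells with and without HAND1 overexpression. The 8 genes were CXCL12, its receptors CXCR4 and ACKR3, and the ligands CXCL8, CXCL5, CXCL16, CX3CL1 and CCL2. They were chosen by symbol from the 58229 genes of the table, with earlier results of these data known. The cells were derived from the H1 line of human embryonic stem cells, an established cell line, taken through stepwise hematopoietic differentiation with activin A and BMP4, then VEGF and bFGF. CD31+ cells were collected at day 8 from a Control group (2 libraries) and from a HAND1_OE group (2 libraries). HAND1 is a transcription factor of the basic helix-loop-helix class, drawn in the study as induced with doxycycline. The study's text does not say whether Control cells also received doxycycline. The labels give neither the promoter that drove it nor the number of clones, and do not say whether the 2 libraries of a group came from separate cultures. The p-values below therefore measure only the spread between these libraries, which may be technical.

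Chemokines are small secreted proteins that direct cell movement through G protein-coupled receptors. They are named by the spacing of the first cysteines of the mature protein: side by side in CC chemokines, parted by a single residue in CXC chemokines and by 3 residues in CX3CL1. CXCL12 signals through CXCR4, which couples to inhibitory G proteins, while ACKR3 binds the same ligand, recruits arrestin and removes the ligand from the surroundings. In embryonic vessels and blood-forming tissue this axis is known for guiding arterial endothelium and for retaining stem and progenitor cells. CXCL8, CXCL5 and the related CXCL1, CXCL2 and CXCL3 carry a glutamate-leucine-arginine motif before the first cysteine and act on CXCR1 and CXCR2. CXCL16 and CX3CL1 are membrane-anchored and also shed, and act on CXCR6 and CX3CR1, whereas CCL2 acts on CCR2.

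The coding stretches around the signature show these families at the level of the RNA that was counted. Each is given 5′ to 3′ along the coding strand from GENCODE release 29 (GRCh38), with the codons of the signature cysteines in capitals. CXCL2 is shown as the ligand outside the 8 genes with the highest mean FPKM over the 4 libraries.
CXCL12: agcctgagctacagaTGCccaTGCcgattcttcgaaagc
CXCL16: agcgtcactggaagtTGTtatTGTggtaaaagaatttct
CXCL8: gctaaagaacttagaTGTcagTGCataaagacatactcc
CXCL5: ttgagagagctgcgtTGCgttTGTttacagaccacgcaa
CXCL2: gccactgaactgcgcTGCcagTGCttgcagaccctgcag
CX3CL1: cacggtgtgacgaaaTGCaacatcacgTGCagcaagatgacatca
CCL2: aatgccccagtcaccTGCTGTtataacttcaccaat
All 7 stretches lie in exon 2 of their gene. That of CXCL12 is at chr10:44380831-44380869 on the minus strand, and that of CXCL16 at chr17:4738865-4738903 on the minus strand. That of CXCL8 is at chr4:73741562-73741600 on the plus strand, that of CXCL5 at chr4:73998280-73998318 and that of CXCL2 at chr4:74098873-74098911, the last pair on the minus strand. That of CX3CL1 is at chr16:57379642-57379686 and that of CCL2 at chr17:34256230-34256265, both on the plus strand. The codons for glutamate, leucine and arginine directly precede the first cysteine in CXCL8, CXCL5 and CXCL2 and not in CXCL12 or CXCL16.

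Values were FPKM, the fragments of a gene per kilobase of transcript, scaled to the depth of the library, so levels of different genes can be set side by side. The fragment steps in low genes corresponded to 21580000 to 26110000 fragments a library, and 13989 to 14542 genes reached 1 FPKM. HAND1 was at 12.1 and 14.3 FPKM in Control, against 520 and 517 FPKM in HAND1_OE. Its log2 fold change was 5.20 ± 0.15 (SE, n = 2 a group, limma adjusted p = 0.00145), so the labels matched the overexpressed gene. PECAM1, which encodes CD31, was at 95.5 and 141 FPKM in Control, against 91.97 and 160 FPKM in HAND1_OE. All fold changes are on the log2(FPKM + 1) scale, which understates the change of low genes. Values of 0 are given as listed and not read as silence. SLC25A6, which most cells use, was listed at 0 in all 4 libraries. It is a pseudoautosomal gene, and Y copies of such genes were left out, so its 0 does not bear on other genes.

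In the HAND1_OE libraries both CXCL12 receptors stood below the Control libraries, ACKR3 narrowly past the test threshold and CXCR4 not, whereas CXCL12 itself remained low. Among the other ligands CCL2 rose and CX3CL1 fell. Of the 8 genes, 6 reached 1 FPKM in at least 2 libraries and were tested, and CXCL8 and CXCL5 were not. In limma, 1 was higher at an adjusted p under 0.05, against 2.04% of all 14622 genes tested, and 2 were lower, against 2.11% of all genes. The HAND1_OE values lay wholly above the Control values for 3 of the 6 tested and wholly below for the other 3. The same held in the higher direction for 16.2% and in the lower direction for 30.1% of all genes tested, so lying apart is common in these data.

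**Figure D1:**
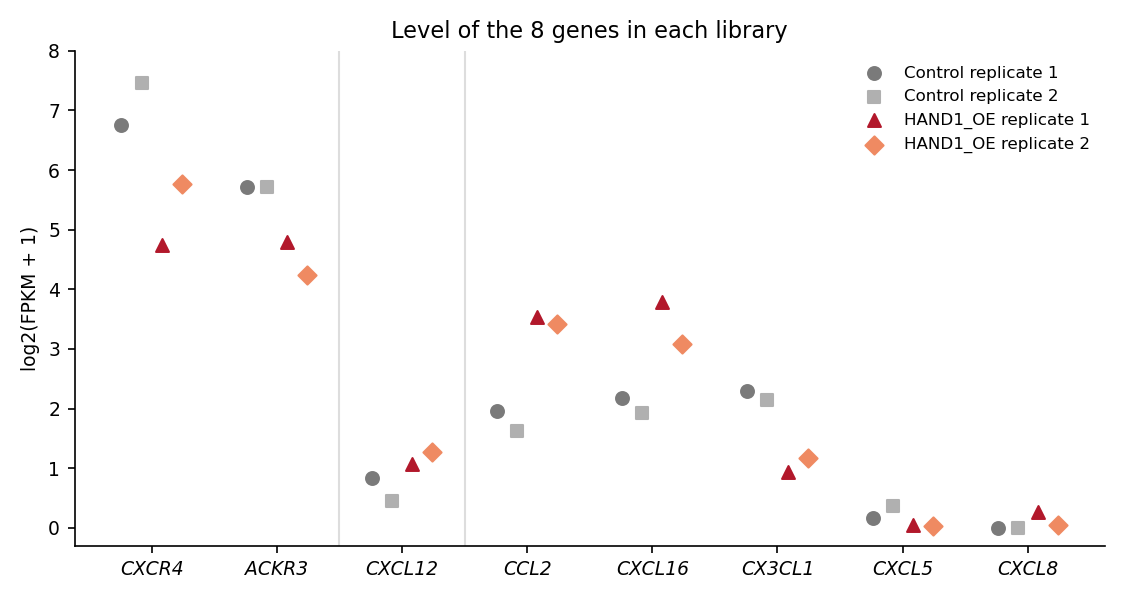
Level of each of the 8 genes, as log2(FPKM + 1), in the 4 libraries, with 1 point a library. CXCR4 and ACKR3 are the highest in both groups, CCL2 and CXCL16 are the ligands that lie furthest above Control in HAND1_OE, and CXCL5 and CXCL8 lie near 0.

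CXCR4 (chr2:136114349-136118165) was at 107 and 175 FPKM in Control, against 25.6 and 53.2 FPKM in HAND1_OE. By mean level it was the most abundant chemokine receptor of both groups. The groups did not overlap, although the libraries within each group differed widely. The Control mean was 141 ± 48.5 FPKM and that of HAND1_OE 39.4 ± 19.5 FPKM (SD, n = 2 each). The log2 fold change was -1.86 ± 0.40 (SE) with a 95% interval from -2.84 to -0.87, and it did not pass the test at an adjusted p = 0.0727. With 1 library left out, the log2 fold change ranged from -2.37 without HAND1_OE replicate 2 to -1.34 without HAND1_OE replicate 1. Such a fit leaves 1 library in a group, whose spread is then not measured. Only its fold change is therefore given here and below.

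ACKR3 (chr2:236567787-236582358), the scavenging receptor of CXCL12, was at 51.6 and 51.5 FPKM in Control, against 26.8 and 17.8 FPKM in HAND1_OE. Control libraries were nearly alike, and the spread lay in the HAND1_OE group. ACKR3 fell by 1.20 ± 0.22 on the log2 scale (SE, 95% interval -1.74 to -0.66), 2.29-fold, with an adjusted p = 0.0468. The value lay close to the threshold, and the call was lost with a pseudocount of 0.1 (adjusted p = 0.0524) or with median-ratio scaling (adjusted p = 0.0586). It was also lost with quantile normalization (0.0503), without the trend (0.0589) and when every gene above 0 was tested (0.234). The replicate block alone kept it (0.0315). Over the alternatives that kept all 4 libraries the adjusted p ranged from 0.0315 to 0.234. With 1 library left out, the log2 fold change lay between -1.48 and -0.92.

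The ratio of CXCR4 to ACKR3 FPKM was 2.07 and 3.40 in Control and 0.955 and 2.98 in HAND1_OE. These ranges overlapped, and the ratio was not tested. HAND1_OE replicate 1 was the only library in which ACKR3 exceeded CXCR4.

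CXCL12 (chr10:44370165-44386493), the ligand that both receptors share, was at 0.774 and 0.368 FPKM in Control, against 1.10 and 1.41 FPKM in HAND1_OE. Its receptors stood far above it in every library. It passed the filter on low values only through the HAND1_OE libraries, so its place among the tested genes carries no weight for its direction. The log2 fold change was 0.53 ± 0.24 (SE, 95% interval -0.07 to 1.13) and did not pass the test (adjusted p = 0.355). Across the 8 alternatives in which CXCL12 could be tested the adjusted p stayed between 0.221 and 0.783.

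HAND1 binds DNA with E protein partners at E-boxes and related sites, so the promoter of the receptor with the highest mean level was searched. The sequence is the 250 bases before the first start that RefSeq lists for CXCR4 (GRCh38.p14, chr2:136118150-136118399, minus strand), 5′ to 3′ along the gene, with TCTGG on either strand in capitals. TCTGG is the core of the motif catalogued for HAND1 with TCF3.
CXCR4: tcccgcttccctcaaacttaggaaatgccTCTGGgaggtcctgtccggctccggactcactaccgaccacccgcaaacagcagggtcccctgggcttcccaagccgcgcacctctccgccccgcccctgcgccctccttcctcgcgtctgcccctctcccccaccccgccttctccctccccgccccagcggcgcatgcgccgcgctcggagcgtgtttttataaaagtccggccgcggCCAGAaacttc
TCTGG occurred at 2 places in the CXCR4 window, at 1 in that of CXCL5 and at 0 in those of CXCL12 and CXCL8. Outside the 8 genes it occurred at 3 places each in the windows of CXCL1 and CXCL3. The window of CXCL2 held 2 and that of CXCL6 held 0. At least 1 match on either strand occurred in 51.7% of 35116 promoter windows. The E-box CANNTG, which reads as the same pattern on both strands, occurred at 1 place each in the windows of CXCL8 and CXCL2. It occurred at 0 in those of CXCR4, CXCL12, CXCL5, CXCL1, CXCL3 and CXCL6, and 61.8% of all windows held it. A match here is a description of letters and not a binding site. RefSeq promoter sequences were at hand for 4 of the 8 genes.

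**Figure D2:**
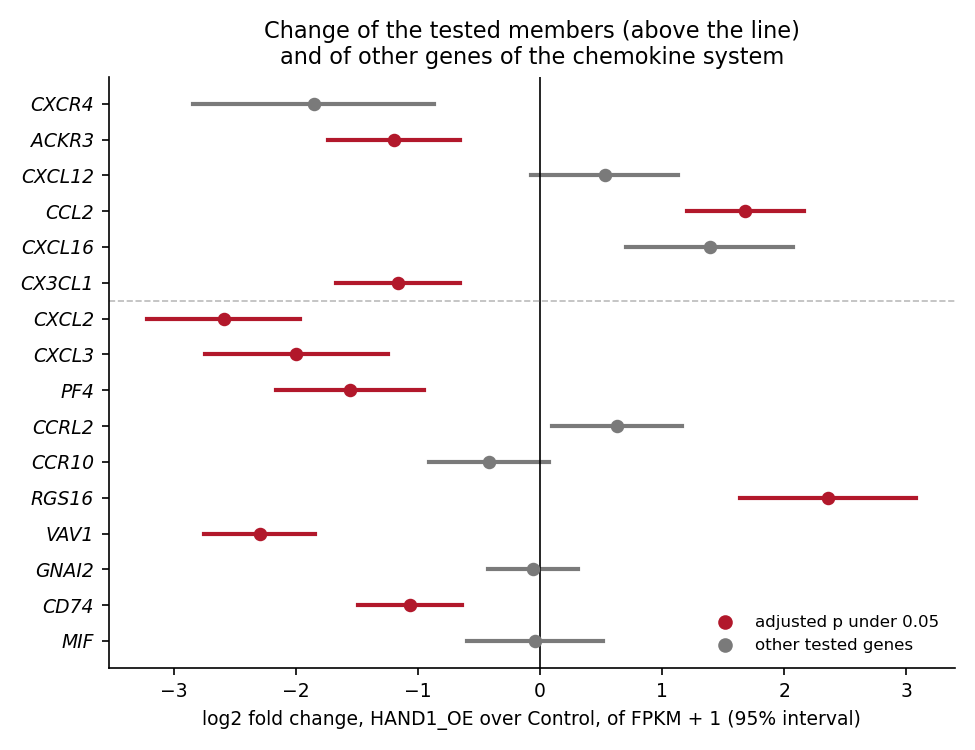
Log2 fold change of FPKM + 1 (HAND1_OE over Control) with its 95% interval for the 6 tested members, above the dashed line, and for other genes of the chemokine system, below it. Intervals in red belong to genes with an adjusted p under 0.05, which include CCL2 and RGS16 on the higher side and ACKR3, CX3CL1, CXCL2, CXCL3, PF4, VAV1 and CD74 on the lower side.

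CCL2 (chr17:34255218-34257203), a monocyte attractant, was at 2.89 and 2.10 FPKM in Control, against 10.6 and 9.71 FPKM in HAND1_OE. Both HAND1_OE libraries were high and close to each other. CCL2 rose by 1.68 ± 0.19 on the log2 scale (SE, 95% interval 1.20 to 2.16), 3.21-fold, with an adjusted p = 0.0153. With 1 library left out, the log2 fold change lay between 1.52 and 1.85. With all 4 libraries kept, CCL2 held the call in all alternatives but 1, and the adjusted p ranged from 0.013 to 0.162. The exception was the test of every gene above 0, in which limma called 0 genes, although 1458 were higher and 2352 lower with an unadjusted p under 0.05.

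CXCL16 (chr17:4733526-4739922), a scavenger receptor and ligand in membrane-anchored form, was at 3.50 and 2.80 FPKM in Control, against 12.8 and 7.48 FPKM in HAND1_OE. The groups did not overlap, and the HAND1_OE libraries were further apart than the Control libraries. The log2 fold change was 1.39 ± 0.27 (SE, 95% interval 0.71 to 2.07) and missed the threshold at an adjusted p = 0.0592. With 1 library left out, the log2 fold change lay between 1.04 and 1.74. Of the 2428 exonic bases of CXCL16, 85 are shared with MED11 on the opposite strand, and the library kit does not mark strand, so a small part of its reads could belong to either gene.

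CX3CL1 (chr16:57372458-57385048), which endothelial cells display to capture leukocytes, was at 3.90 and 3.42 FPKM in Control, against 0.907 and 1.25 FPKM in HAND1_OE. Control libraries were high and HAND1_OE libraries low, with little spread in either group. CX3CL1 fell by 1.17 ± 0.20 on the log2 scale (SE, 95% interval -1.67 to -0.66), 2.25-fold, with an adjusted p = 0.0425. The call was lost with a pseudocount of 0.1 (adjusted p = 0.0518) and with quantile normalization (adjusted p = 0.0524). It was also lost when every gene above 0 was tested (adjusted p = 0.216). With 1 library left out, the log2 fold change lay between -1.29 and -1.05. The anchored ligands CXCL16 and CX3CL1 thus had log2 fold changes of opposite sign.

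CXCL8 (chr4:73740506-73743716), the main neutrophil attractant, was listed at 0 in Control replicates 1 and 2 but at 0.197 and 0.0308 FPKM in HAND1_OE. In HAND1_OE replicate 1 this came to 2.17 to 7.33 fragments and in replicate 2 to 0.29 to 1 fragment, depending on the transcript length used. At this depth CXCL8 was at the limit of detection, and no fold is given. CXCL5 (chr4:73995642-73998779), its neighbour in the cluster, was at 0.120 and 0.287 FPKM in Control, against 0.0339 and 0.0194 FPKM in HAND1_OE. These values were 6 and 14 fragments in Control and 2 and 1 fragments in HAND1_OE. The ratio of HAND1_OE to Control fragments, each scaled to its depth, was 0.134 with an exact 95% interval from 0.0255 to 0.451, which covers counting error only. When every gene above 0 was tested, the adjusted p was 0.434 for CXCL5 and 0.634 for CXCL8.

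CXCL8 and CXCL5 belong to a tight array of CXC ligand genes on chromosome 4, with 9 genes in 359 kb. The array was followed as a whole because the other ligands that fell lie in it. CXCL2 (chr4:74097035-74099293), a neutrophil attractant, was at 8.55 and 12.2 FPKM in Control, against 0.617 and 1.14 FPKM in HAND1_OE. CXCL2 fell by 2.59 ± 0.25 on the log2 scale (SE), 6.04-fold, with an adjusted p = 0.00986. CXCL3 (chr4:74036589-74038807), its near copy, was at 3.65 and 6.61 FPKM in Control, against 0.680 and 0.320 FPKM in HAND1_OE. CXCL3 fell by 2.00 ± 0.30 on the log2 scale (SE), with an adjusted p = 0.0304. PF4 (chr4:73981077-73982124), the platelet factor of megakaryocyte granules, was at 2.29 and 2.55 FPKM in Control, at 0.352 FPKM in HAND1_OE replicate 1 and at 0 in replicate 2. PF4 fell by 1.56 ± 0.24 on the log2 scale (SE, adjusted p = 0.0335), but with a pseudocount of 0.1 its log2 fold change was -3.57 and the call was lost (adjusted p = 0.0972). It had 16 and 18 fragments in Control and 3 and 0 in HAND1_OE, a ratio of 0.0787 with an exact 95% interval from 0.0155 to 0.25. CXCL3 and PF4 passed the filter on low values only through the Control libraries, so their presence among the tested genes carries no weight for their direction.

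Of the 9 genes of the array, 6 stood lower in both HAND1_OE libraries than in both Control libraries: CXCL2, CXCL3, CXCL1, CXCL5, CXCL6 and PF4. Over all genes tested 30.1% did so, and since the array was followed for its called genes CXCL2, CXCL3 and PF4, these add nothing to the count. CXCL8, at the far end, was the gene that stood higher, PF4V1 was listed at 0 in all libraries, and PPBP was above 0 in a single Control library. CXCL1 was at 0.502 and 1.26 FPKM in Control, against 0.187 and 0.311 FPKM in HAND1_OE, and CXCL6 at 0.0630 and 0.165 FPKM in Control with 0 in both HAND1_OE libraries. CXCL1, CXCL2 and CXCL3 are near-identical copies whose reads can be divided between them by the authors' estimate, so the level of each single copy is uncertain. CXCL1 and CXCL6 were named for their place in the array after their values were seen.

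The 6 genes of the array whose promoters were searched share a stretch of letters. Those of PF4, PF4V1 and PPBP were not analysed here. NF-kappa B proteins are known to act on these promoters, and the pattern GGNNTTTCC was searched on both strands in the 250 bases before the first RefSeq start (GRCh38.p14). The matching letters are in capitals with 12 bases on each side, 5′ to 3′ along each gene.
CXCL8: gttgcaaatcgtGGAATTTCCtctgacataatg
CXCL6: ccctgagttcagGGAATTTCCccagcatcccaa
CXCL5: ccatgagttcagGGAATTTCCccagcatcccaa
CXCL1: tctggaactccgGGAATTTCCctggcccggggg
CXCL3: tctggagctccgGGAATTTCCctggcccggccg
CXCL2: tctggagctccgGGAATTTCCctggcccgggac
The window of CXCL8 is at chr4:73740466-73740498, that of CXCL6 at chr4:73836577-73836609 and that of CXCL1 at chr4:73869303-73869335, all on the plus strand. The windows of CXCL5 (chr4:73998747-73998779), CXCL3 (chr4:74038747-74038779) and CXCL2 (chr4:74099252-74099284) are on the minus strand. All 6 hold GGAATTTCC, between 77 and 91 bases before the start site, and 5.49% of the 35116 promoter windows hold a match to the pattern on either strand. The windows of CXCL1, CXCL2 and CXCL3 are near copies, as are those of CXCL5 and CXCL6, so the 6 matches are not independent. CXCL1, CXCL2 and CXCL3 carry a further match, GGGCTTTCC, 53 bases before the start site. Of these 6 genes only CXCL2 and CXCL3 were tested for a change, and the part of these letters in any level was not tested. The CXCR4 window printed above also holds a match, GGAAATGCC, 230 bases before its start site, and that of CXCL12 holds none.

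**Figure D3:**
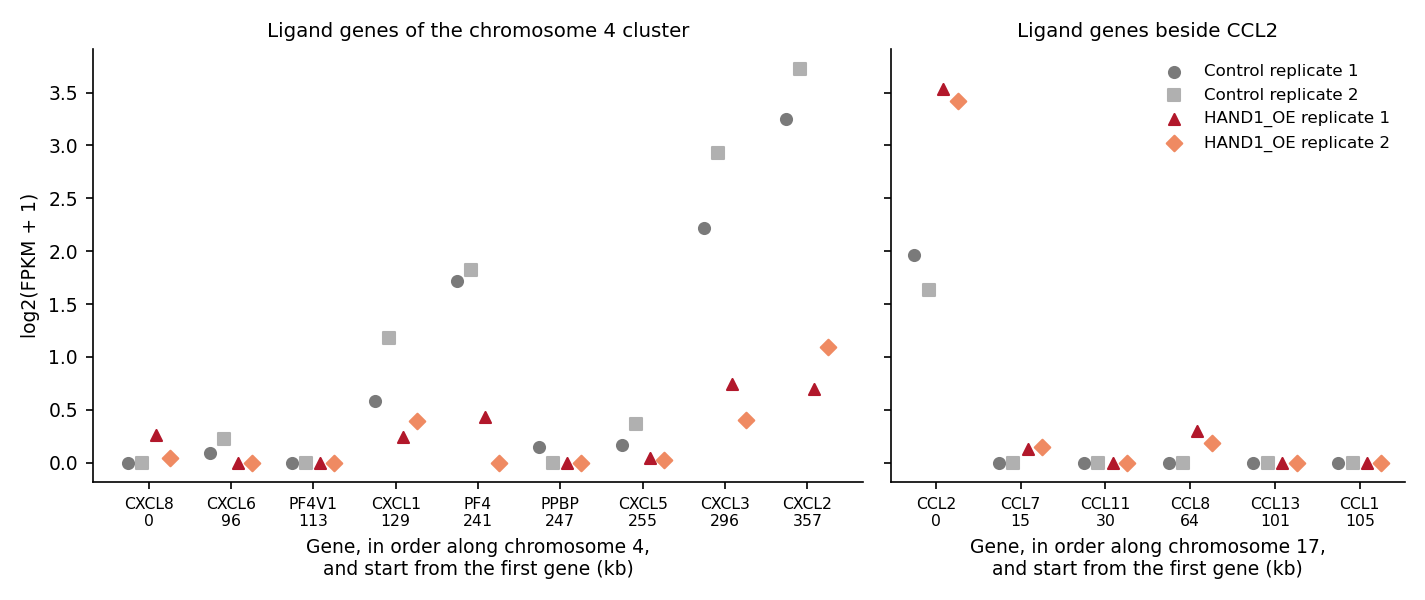
Level of each ligand gene, as log2(FPKM + 1), in the chromosome 4 array (left) and beside CCL2 on chromosome 17 (right), in gene order, with the distance of each gene's start from the first gene in kb. In the array 6 of 9 genes lie lower in HAND1_OE, and beside CCL2 the genes above 0 lie higher.

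CCL2 also lies in an array, with 6 CC ligand genes in 108 kb of chromosome 17. CCL7 was listed at 0 in Control replicates 1 and 2 but at 0.0915 and 0.108 FPKM in HAND1_OE. CCL8 was listed at 0 in Control replicates 1 and 2 but at 0.234 and 0.135 FPKM in HAND1_OE, which came to 6 and 3 fragments. Both encode monocyte attractants related to CCL2 and were near the limit of detection. CCL11, CCL13 and CCL1 were listed at 0 in all 4 libraries. CCL7 and CCL8 were named for their place in the array after their values were seen.

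The summed FPKM of the 46 ligand genes was 28.4 and 34.8 in Control and 29.3 and 24.3 in HAND1_OE, so the totals overlapped while the make-up differed. CXCL2 took 30.04% and 35.1% of the sum in Control and 2.10% and 4.68% in HAND1_OE. CXCL16 took 12.3% and 8.05% in Control and 43.9% and 30.7% in HAND1_OE. CCL2 took 10.2% and 6.02% in Control and 36.1% and 39.9% in HAND1_OE. In Control the neutrophil attractant CXCL2 was therefore the leading ligand RNA, and in HAND1_OE it was CXCL16 in replicate 1 and CCL2 in replicate 2. CX3CL1 took 13.7% and 9.81% in Control and 3.10% and 5.13% in HAND1_OE, and CXCL12 took between 1.06% and 5.80% in the 4 libraries. Of the 46 ligands, 13 were listed at 0 in every library.

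**Figure D4:**
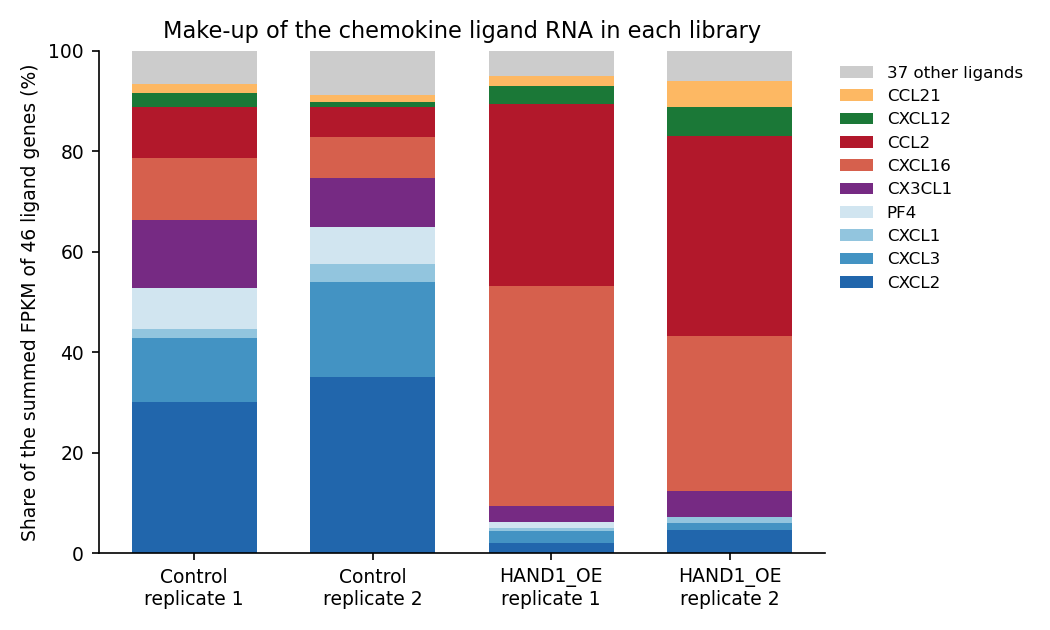
Share of each ligand in the summed FPKM of 46 chemokine ligand genes, in percent, with 1 bar a library. CXCL2 leads both Control bars at 30.04% and 35.1%, while CXCL16 and CCL2 fill most of both HAND1_OE bars.

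Of the 40 ligands outside the 8 genes, 3 were tested, and all 3 fell (CXCL2, CXCL3 and PF4), against 2.11% of all genes. CXCL3 and PF4 were tested only because they were high in Control, which tilts this count towards falls. Of the 21 other receptors, 2 were tested and 0 were called in limma, with CCRL2 alone at an unadjusted p under 0.05. CCRL2, an atypical receptor, was at 3.67 and 4.25 FPKM in Control, against 7.88 and 5.61 FPKM in HAND1_OE (log2 fold change 0.63 ± 0.21 SE, adjusted p = 0.213). CCR10 was at 3.74 and 4.51 FPKM in Control, against 3.16 and 2.52 FPKM in HAND1_OE (log2 fold change -0.42 ± 0.20 SE, adjusted p = 0.372). CCR3, the next by level, ranged from 0.0494 to 0.708 FPKM with overlapping groups.

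The main receptors of the other ligands were listed under 1 FPKM in every library, and a listed 0 is not read as absence. CCR2, the receptor of CCL2, and CXCR1, a receptor of CXCL8, were listed at 0 in all 4 libraries. CXCR2 ranged from 0 to 0.136 FPKM, CXCR6, the receptor of CXCL16, from 0.0179 to 0.156 FPKM and CX3CR1, the receptor of CX3CL1, from 0.0541 to 0.229 FPKM. The 23 receptors summed to 166 and 237 FPKM in Control and to 64.6 and 80.2 FPKM in HAND1_OE, of which CXCR4 was 64.0% and 73.8% in Control and 39.7% and 66.3% in HAND1_OE.

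Downstream of CXCR4, all 21 genes of G protein coupling and desensitisation were tested. Of these 1 was higher and 1 was lower, against 2.04% and 2.11% of all genes. Their median log2 fold change was -0.06 against -0.08 over all genes tested. RGS16, which speeds the switching off of inhibitory G proteins, was at 9.46 and 7.67 FPKM in Control, against 63.7 and 36.0 FPKM in HAND1_OE. RGS16 rose by 2.36 ± 0.29 on the log2 scale (SE, adjusted p = 0.0179). VAV1, a signalling protein of blood cells, was at 7.79 and 7.84 FPKM in Control, against 0.888 and 0.701 FPKM in HAND1_OE. VAV1 fell by 2.30 ± 0.18 on the log2 scale (SE, adjusted p = 0.00730). VAV1 passed the filter on low values only through the Control libraries, so its presence among the tested genes carries no weight for its direction, and it could not be tested with either Control library left out. The most abundant genes of the list, the G protein subunits GNAI2 and GNB1 and the regulator RGS5, had log2 fold changes of -0.06 ± 0.15, 0.07 ± 0.15 and -0.25 ± 0.17 (SE), and none passed the test.

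Among 13 genes that process chemokines or encode other ligands of their receptors, 9 were tested and 1 was lower, against 2.11% of all genes. Their median log2 fold change was -0.04. CD74, a receptor of the cytokine MIF and the invariant chain of class II antigen presentation, was at 19.1 and 17.2 FPKM in Control, against 7.32 and 8.997 FPKM in HAND1_OE. CD74 fell by 1.07 ± 0.17 on the log2 scale (SE, adjusted p = 0.0354). The call was lost when every gene above 0 was tested (adjusted p = 0.174). MIF, which also binds CXCR4 and ACKR3, was at 298 and 244 FPKM in Control, against 311 and 221 FPKM in HAND1_OE. MIF thus stood far above CXCL12 in every library, and its groups overlapped. HMGB1, which can pair with CXCL12, ranged from 248 to 290.1 FPKM with overlapping groups. MMP2, a protease that cleaves CXCL12 and CCL family members, was at 104 and 80.5 FPKM in Control, against 132 and 154 FPKM in HAND1_OE (log2 fold change 0.63 ± 0.19 SE, adjusted p = 0.161). Of the 9 tested, 1 lay wholly higher in HAND1_OE and 3 wholly lower, against 16.2% and 30.1% of all genes. Among the lower were MMP9 (log2 fold change -1.36 ± 0.34 SE, adjusted p = 0.105) and CPM (-3.32 ± 0.89 SE, adjusted p = 0.128), which did not pass the test.

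Blood cell markers moved with these results. Over all genes tested, limma called 2.11% lower, the share to set beside each count that follows. Some markers, such as GFI1 and IKZF1, passed the filter only through Control, which tilts these counts towards falls. The summed FPKM of 14 pan-hematopoietic markers was 146 and 169 in Control and 29.5 and 33.2 in HAND1_OE, and 9 of 13 tested were lower. The sum of 14 erythroid markers was 902 and 1295 in Control and 75.5 and 61.1 in HAND1_OE, with 12 of 13 tested lower. The sum of 10 megakaryocyte markers, PF4 among them, was 161 and 205 in Control and 17.6 and 12 in HAND1_OE, with 7 of 8 tested lower. The sum of 10 myeloid markers was 112 and 86.2 in Control and 14.0 and 10.6 in HAND1_OE, with 4 of 6 tested lower. These falls ran in the same direction as those of CXCL2, CXCL3, PF4, CX3CL1, ACKR3, VAV1 and CD74, and VAV1 is itself a pan-hematopoietic marker. Among the pan-hematopoietic markers, SPN, which encodes CD43, was at 18.9 and 21.1 FPKM in Control and RUNX1 at 16.5 and 35.0 FPKM. PTPRC, which encodes CD45, ranged from 0 to 0.0227 FPKM over all 4 libraries. In RNA from bulk cells, fewer cells of a type and less RNA a cell cannot be told apart, and the part of blood cells in these results was not tested.

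Endothelial marker sums overlapped between the groups. The sum of 13 endothelial markers was 2331 and 1905 FPKM in Control and 2292 and 2057 FPKM in HAND1_OE. Among the 13 tested VWF was higher and CLDN5 lower, against 2.04% and 2.11% of all genes in those directions. The sum of 12 arterial markers, the vessel type in which CXCR4 is best known, was 1565 and 1440 FPKM in Control and 1253 and 1467 FPKM in HAND1_OE, with HEY2, which fell, as the only call among the 12 tested. The sum of 12 fibroblast and stroma markers was 984 and 894 FPKM in Control and 1275 and 1300.1 FPKM in HAND1_OE. Of 10 tested, 4 were higher, against 2.04% of all genes: LUM, FBN1, PDGFRB and POSTN. POSTN passed the filter only through HAND1_OE. Not all of the list lay higher, since COL1A1, COL1A2 and FBLN1 lay wholly lower in HAND1_OE, without passing the test. COL1A2 was at 154 and 141 FPKM in Control, against 68.6 and 101 FPKM in HAND1_OE. CCL2 and CXCL16 are also made by stromal cells and lay higher in the same libraries, and the part of stromal cells in their levels was not tested.

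**Figure D5:**
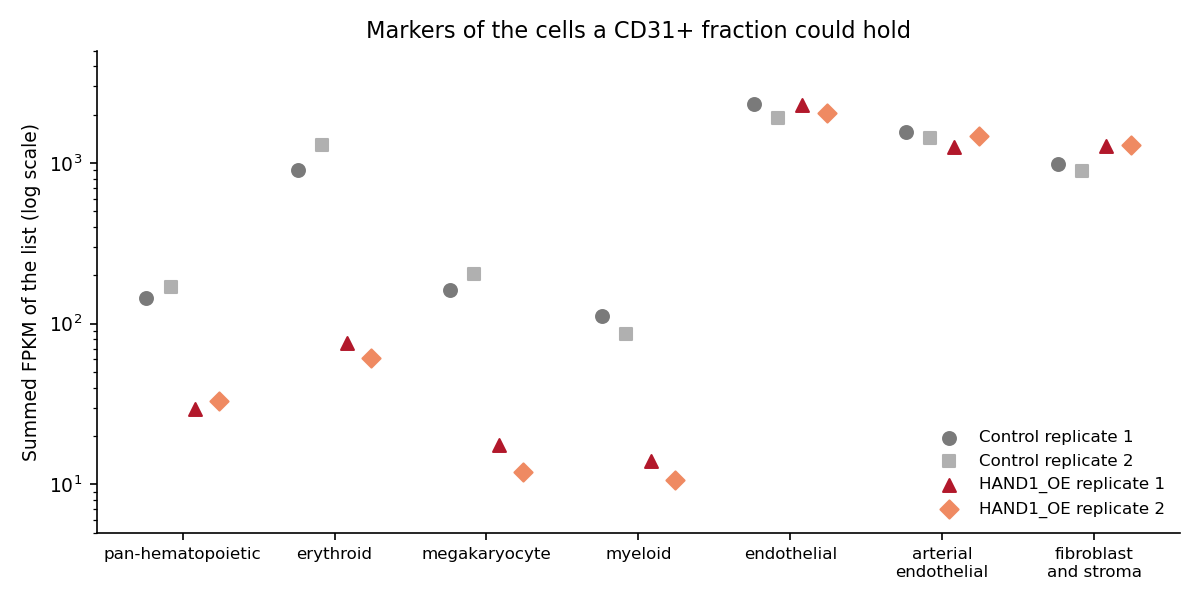
Summed FPKM, on a log axis, of each list of cell type markers in the 4 libraries, with 1 point a library. All blood lists lie lower in HAND1_OE, and the endothelial and arterial lists overlap between groups. The sum of the stroma list lies higher in HAND1_OE, through THY1 and COL3A1.

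By level the 8 genes were ordered in Control as CXCR4, ACKR3, CX3CL1, CXCL16, CCL2, CXCL12, CXCL5 and CXCL8. Among neighbours, CX3CL1 and CXCL16 overlapped, as did CXCL16 and CCL2, and all other neighbours lay apart. In HAND1_OE the order was CXCR4, ACKR3, CXCL16, CCL2, CXCL12, CX3CL1, CXCL8 and CXCL5. There CXCR4 and ACKR3 overlapped, as did CXCL16 and CCL2, CXCL12 and CX3CL1, and CXCL8 and CXCL5. Among all genes tested, CXCR4 held place 535 by mean level in Control and place 2310 in HAND1_OE, while CCL2 went from place 11883 to place 6856.

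The genes whose values lay closest to those of CXCL12 across the 4 libraries were ARVCF, CD24 and SLC6A12, with root mean square differences of centred log2(FPKM + 1) from 0.0263 to 0.0368 over 14606 genes compared. Those closest to CXCR4 were N4BP3, FZD1 and FCN3, at 0.104 to 0.125. FCN3 was at 100.4 and 189 FPKM in Control, against 25.8 and 63.6 FPKM in HAND1_OE, with the lower library first in both groups, as for CXCR4. With 4 libraries such likeness is a description of these values.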

How the data were processed

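RNA of 2 Control and 2 HAND1_OE libraries, grouped by sample title, was made into libraries with a TruSeq kit of Illumina. The authors deposited 1 table of values per gene and library, whose unit was taken as FPKM because fragment steps were recovered: 96.5% to 97.3% of low single-exon values lay within 0.1 of a whole fragment. The submitters' processing notes name BWA, Bowtie, RSEM and hg19, with no versions or roles, but the row coordinates match GRCh38 (starts were moved to count from 1). In each library 667 to 681 genes lay above 0 and under 0.0001 FPKM, less than a fragment gives, so shared reads had been split by estimation.

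From the 58365 rows, 45 Y copies of pseudoautosomal genes and 91 repeats of a gene ID were left out. Genes that reached 1 FPKM in 2 or more libraries were tested as log2(FPKM + 1) with limma 3.58.1 under R 4.3.3, with its mean-variance trend, two-sided, with Benjamini-Hochberg adjustment over all 14622 genes. An exact permutation test of 2 against 2 libraries cannot go below p = 0.333 and was not used. The code was tested on simulated data.

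The 8 genes and all lists were chosen with earlier results of these data known. Named genes were HAND1, the 8 genes, up to 5 called genes and the 3 highest of each pathway list, and the 3 genes most like CXCL12 and CXCR4. Others were named for their place, as receptors of the ligands, as list genes that went the other way or as those that carried a sum. Alternatives were another pseudocount, filter, scaling or trend setting, a replicate block and each library left out.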

Additional observations from a re-analysis of the deposited data

How the results depend on the processing

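Over all genes, 299 were higher and 309 lower. With a pseudocount of 0.1 these were 272 and 266, with quantile normalization 355 and 266, with median-ratio scaling 352 and 262, and without the trend 293 and 319. Counts are not given for fits with a library left out, since these leave 1 library in a group. With every gene above 0 in any library, limma called 0 higher and 0 lower of 29860 genes, while 1458 and 2352 had an unadjusted p under 0.05 in those directions. In that setting 0 members and 0 pathway genes were called in either direction, and the cause was not tested. There ACKR3 had a log2 fold change of -1.20 (adjusted p = 0.234), CX3CL1 of -1.17 (0.216) and CCL2 of 1.68 (0.162).

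The labels number the libraries 1 and 2 in both groups without saying that a number marks a shared culture, and the deviations of same-numbered libraries correlated at 0.383. With the replicate block, 597 genes were higher and 712 lower, 2 members were higher and 10 pathway genes lower, and CXCR4 (-1.86, adjusted p = 0.00964) and CXCL16 (1.39, adjusted p = 0.0256) passed the test.

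ACKR3 missed the threshold at -1.23 (0.0524) with the pseudocount of 0.1, -1.17 (0.0503) with quantile normalization, -1.11 (0.0586) with median-ratio scaling and -1.20 (0.0589) without the trend. CX3CL1 missed it at -1.69 (0.0518) with the pseudocount of 0.1 and at -1.05 (0.0524) with quantile normalization. Members called lower were therefore 0 with either of these 2 settings, and 1 with median-ratio scaling or without the trend, against 2 in the report. With a library left out, members called higher ranged from 1 to 2, members called lower from 0 to 3 and pathway genes called lower from 3 to 8. Log2 fold changes then ranged from -2.37 to -1.34 for CXCR4, -1.48 to -0.92 for ACKR3, 1.04 to 1.74 for CXCL16 and -1.29 to -1.05 for CX3CL1. No direction was reversed in any alternative. CXCL12 had no value without either HAND1_OE replicate, since it no longer passed the filter. At this depth CXCL5 and CXCL8 rest on few fragments.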
